A study of Oryza sativa Japonica Group with 6 samples.

Results

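The genes described here are 10 rice genes for the large cytosolic heat shock chaperones: 1 HSP101 gene, 4 genes of the HSP90 family and 5 of the HSP70 family. They were taken by gene ID from a list that assigns each ID to its family, and all 10 were present among the 93655 features of the expression table. They were measured by RNA sequencing in endosperm, the starch- and protein-storing tissue of the grain, at 7 days after pollination. Of the 6 libraries, 3 carry the genotype label wildtype (WT) and 3 the label nf-yc11 mutant; the series title names the material as ZH11, a japonica rice cultivar, and NF-YC11 is one of the C subunits of NF-Y, a trimeric transcription factor. No treatment is given in the labels, so both groups are untreated plants as far as these say, and the question set by the design text is how mRNA levels differ between mutant and wild type. The labels give neither the mutated locus nor the number of mutant lines or plants.

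Heat shock proteins are molecular chaperones, which bind other proteins while these fold, assemble or recover from damage. HSP70 proteins bind short exposed stretches of unfolded chains in cycles driven by ATP. HSP90 proteins act later and hold a narrower set of clients, many of them kinases and receptors, close to their active form. HSP101, of the ClpB family, is a ring-shaped disaggregase that threads proteins out of aggregates together with HSP70. In plants the HSP70 and HSP90 families have members that are kept on in unstressed tissue and members that heat shock factors switch on with heat. Seeds are known to make some heat shock proteins during development without any heat.

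Levels are given as FPKM, a read count scaled to feature length and library size. Levels of different genes can be compared only as far as each feature covers its transcript. Behind the values lay 14593215 to 21984785 reads per library, and between 5 and 37712 reads per chaperone gene and library. OS05G0304800, the ID taken for NF-YC11, has no entry in the gene table used for names, so that this assignment was not checked. It stood at 125, 124 and 130 FPKM in WT replicates 1 to 3 and at 106, 111 and 112 FPKM in nf-yc11 replicates 1 to 3. Its level was lower by a small margin (log2 change −0.20 ± 0.04 SE, adjusted p = 0.0037, limma with Benjamini-Hochberg adjustment), which does not show which gene carries the mutation; the mutant libraries are therefore called by their label. Pearson r of log2 values across genes was 0.981 to 0.983 within groups and 0.948 to 0.955 between groups, and no library stood apart. Whether the replicates are separate plants is not stated in the labels; p-values therefore speak of the spread among these 6 libraries, part of which may be technical.

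In the libraries labelled nf-yc11, 9 of the 10 chaperone genes rose and none fell; the count of lower genes was also 0 at an unadjusted p under 0.05 in limma, and 0 with voom on the reads. The genes that rose did so by 1.3-fold to 11.1-fold in mean FPKM, and in each of these 9 genes every nf-yc11 library lay above every WT library. Among all 22093 features tested (mean of at least 1 FPKM), 49.1% changed, of which the risen made up 29.8% and the fallen 19.3% of all features, at an adjusted p under 0.05 (limma on log2(FPKM + 1)), and 35.3% had nf-yc11 libraries all above the WT libraries. The median log2 change was 0.59 over the 10 chaperone genes and 0.06 over all features tested. The split between rising and falling features depended on the scaling between libraries, with 6586 higher and 4256 lower as deposited, 5398 and 5325 with TMM factors, and 5015 and 5732 once the 100 most abundant features were left out of the library total. The 9 chaperone genes passed in the same direction under each of these scalings. In bulk tissue, a change in the share of cells that express a gene and a change in RNA per cell cannot be told apart.

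**Figure D1:**
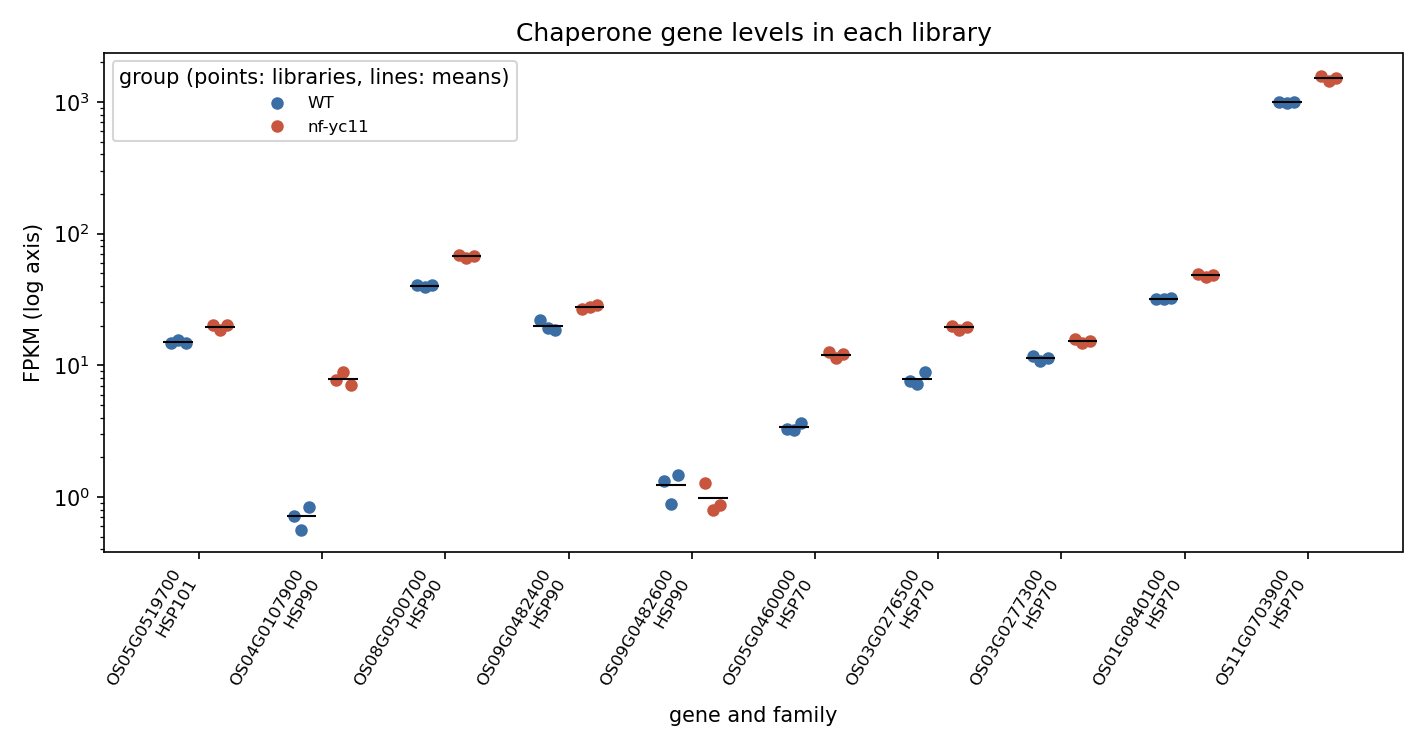
FPKM (log axis) of each of the 10 chaperone genes, with 1 point per library and a line at each group's mean, WT in blue and nf-yc11 in red. In 9 genes the nf-yc11 points lie above all WT points, whereas those of OS09G0482600 overlap, and OS11G0703900 lies far above the rest at 996 FPKM in WT and 1518 FPKM in nf-yc11.

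The HSP70 genes were led by a single abundant gene. OS11G0703900, on chromosome 11, was at 1002, 986 and 1000 FPKM in WT replicates 1 to 3 and at 1582, 1444 and 1527 FPKM in nf-yc11 replicates 1 to 3. It ranked at the 99.7th percentile of the features tested by its WT level and supplied 94.8% ± 0.116 (SD, n = 3) of the summed FPKM of the HSP70 genes in WT. This gene is classed here as a constitutive form, from general knowledge of rice. It rose 1.52-fold (log2 change 0.61 ± 0.04 SE, 95% interval 0.52 to 0.69, adjusted p = 3.8e-05, limma).

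The next HSP70 gene in level, OS01G0840100 on chromosome 1, held WT libraries of 31.7, 31.7 and 32.2 FPKM and nf-yc11 libraries of 49.3, 46.8 and 48.4 FPKM. Its WT libraries were among the tightest of the 10 genes, with a coefficient of variation of 0.91%. The rise was 1.51-fold (adjusted p = 5.05e-05 in limma, log2 change 0.58 ± 0.04 SE), nearly the same size as that of OS11G0703900 at a much lower level.

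OS03G0276500 and OS03G0277300 lie near each other on chromosome 3, with 7 further features numbered between them. OS03G0276500, classed as heat-induced, was at 7.56, 7.20 and 8.86 FPKM in the WT libraries and at 20, 18.5 and 19.7 FPKM in the nf-yc11 libraries. It rose 2.46-fold (log2 change 1.2 ± 0.08 SE, 95% interval 1.02 to 1.39, adjusted p = 5.99e-05, limma). OS03G0277300, not classed, went from 11.8, 10.7 and 11.4 FPKM to 15.8, 14.8 and 15.3 FPKM, and rose 1.36-fold (adjusted p = 0.00125 in limma, log2 change 0.41 ± 0.06 SE). The order of the pair therefore turned over: the ratio of OS03G0276500 to OS03G0277300 was 0.699 ± 0.0719 (SD, n = 3) in WT and 1.27 ± 0.0164 in nf-yc11, with groups that did not overlap. Of the 7 features between them, 4 were tested, of which 2 rose and 2 did not pass.

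OS05G0460000, on chromosome 5, had the lowest level of the HSP70 genes and the largest rise among them. This gene, classed as heat-induced, was at 3.31, 3.21 and 3.64 FPKM in WT and at 12.7, 11.4 and 12.1 FPKM in nf-yc11. The rise was 3.56-fold (log2 change 1.57 ± 0.07 SE, 95% interval 1.40 to 1.74, adjusted p = 1.5e-05, limma), and 110 of the 22093 features tested had a larger log2 change. It rested on 115 to 167 reads per WT library and 417 to 472 reads per nf-yc11 library.

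Summed over the family, HSP70 transcripts went from 1051 ± 10 to 1613 ± 72.6 FPKM (SD, n = 3), a ratio of 1.53. Without OS11G0703900 the sum went from 54.4 ± 1.63 to 94.9 ± 3.16 FPKM, a ratio of 1.75. The make-up of the family moved little. OS11G0703900 supplied 94.1% ± 0.0696 of the sum in nf-yc11. The heat-induced gene OS05G0460000 went from 0.322% ± 0.0196 to 0.747% ± 0.00586 of the sum, and OS03G0276500 from 0.749% ± 0.0783 to 1.2% ± 0.0128. In none of these shares did the groups overlap.

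The HSP90 genes were lower than the leading HSP70 gene and spread over a wide range. OS08G0500700, on chromosome 8, which a RefSeq gene table lists as HSP81-1 or HSP82, was the most abundant, with WT libraries at 40.7, 39.6 and 40.8 FPKM and nf-yc11 libraries at 68.9, 65.8 and 67.5 FPKM. It rose 1.67-fold (log2 change 0.73 ± 0.04 SE, 95% interval 0.64 to 0.81, adjusted p = 1.91e-05, limma). The gene supplied 64.9% ± 1.79 of the summed HSP90 FPKM in WT and 64.8% ± 1.04 in nf-yc11, so its share was alike in both groups within their spread. It was left unclassed between heat-induced and constitutive forms.

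OS04G0107900, on chromosome 4, was the lowest of the 10 genes in WT and had the largest rise of all. Its WT libraries stood at 0.723, 0.566 and 0.847 FPKM and its nf-yc11 libraries at 7.75, 8.97 and 7.07 FPKM. Behind these were 9, 5 and 7 reads in WT and 69, 81 and 68 reads in nf-yc11, over a feature of 566 bases. This length, worked out from the FPKM values, is the smallest that makes the reads of all 6 libraries whole. The true length and reads could be whole multiples of these. The length of 566 bases was the shortest of the 10 genes, and the other HSP90 features ranged from 1954 to 3146 bases. Whether this feature covers a whole transcript was not tested, so its level beside other genes is uncertain. The highest exact Poisson 95% bound among the WT libraries was 1.75 FPKM and the lowest among the nf-yc11 libraries was 5.49 FPKM, which covers counting error only. The ratio of mean FPKM was 11.1, against a log2 change of 2.38 ± 0.11 SE (95% interval 2.11 to 2.65, adjusted p = 1.86e-05, limma) on the log2(FPKM + 1) scale, which understates the change of so low a gene. On the recovered reads, voom in limma gave a log2 change of 3.32 (adjusted p = 9.44e-07). Only 22 of the features tested had a larger log2 change on the FPKM scale. With a WT mean under 1 FPKM this gene passed the filter on low values through its nf-yc11 libraries, so that a difference was built into its being tested.

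OS09G0482400 and OS09G0482600 are neighbours on chromosome 9, where the gene table has HSP81-2 and HSP81-3, and both were classed as constitutive. OS09G0482400 was at 22, 19 and 19 FPKM in WT and at 27, 28 and 29 FPKM in nf-yc11, and rose 1.39-fold (adjusted p = 0.00192 in limma, log2 change 0.46 ± 0.07 SE). OS09G0482600 was the only one of the 10 genes that did not pass. Its WT libraries were at 1.33, 0.885 and 1.47 FPKM and its nf-yc11 libraries at 1.27, 0.802 and 0.874 FPKM, so the groups overlapped (log2 change −0.17 ± 0.16 SE, 95% interval −0.55 to 0.22, adjusted p = 0.427, limma). It rested on 25 to 57 reads per library. On the log2(FPKM + 1) scale the interval of its change holds neither the rise of OS08G0500700 nor that of OS04G0107900, but this scale shrinks changes of so low a gene. With a pseudocount of 0.1 the log2 change was −0.29 ± 0.30 SE, and with voom on the reads −0.41 ± 0.25 SE. Genes of each family share long stretches of similar coding sequence, and the assignment of reads to single copies in the authors' counting is uncertain, and most of all for a low gene beside a higher neighbour.

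The summed HSP90 FPKM went from 62.2 ± 2.33 to 104 ± 0.745 (SD, n = 3), a ratio of 1.67, with no overlap between groups. Within this sum, OS04G0107900 went from 1.14% ± 0.218 to 7.63% ± 0.974, while OS09G0482400 went from 32.0% ± 1.94 to 26.6% ± 1.08. The FPKM of OS08G0500700 was 58.1 ± 11 times that of OS04G0107900 in WT and 8.59 ± 1.13 times in nf-yc11. The ratio of summed HSP70 to summed HSP90 was 16.3, 17.3 and 17.1 in the WT libraries and 16.1, 14.9 and 15.6 in the nf-yc11 libraries, which did not overlap, and without OS11G0703900 it was 0.874 ± 0.0352 and 0.912 ± 0.024, where the groups overlapped.

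**Figure D2:**
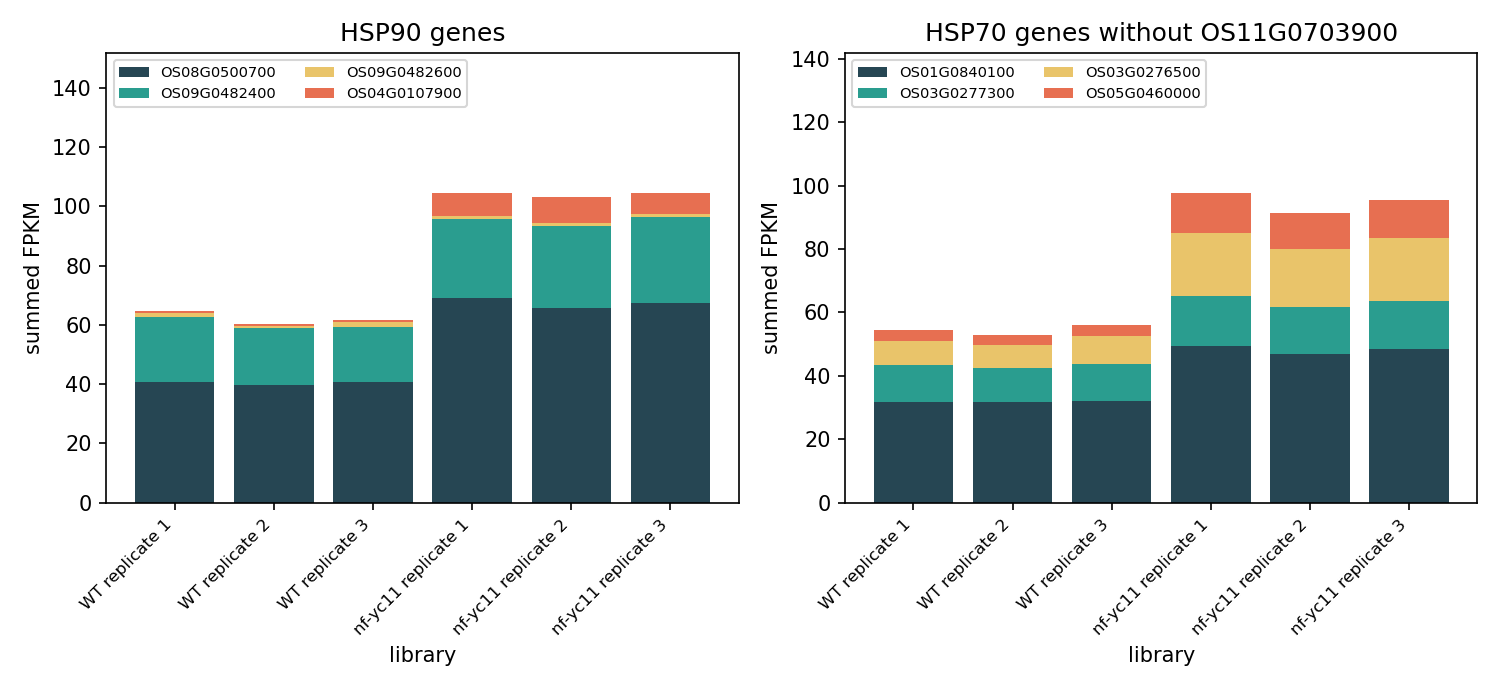
Summed FPKM in each of the 6 libraries, stacked by gene, for the 4 HSP90 genes (left) and the HSP70 genes without OS11G0703900 (right). The HSP90 stack averages 62.2 FPKM in WT and 104 FPKM in nf-yc11, and the top segment, OS04G0107900 on the left and OS05G0460000 on the right, is thin in WT and visible in nf-yc11.

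HSP101 (OS05G0519700, on chromosome 5, listed as hsp101 and CLPB1 in the gene table) changed least among the genes that rose. The WT libraries were at 14.7, 15.7 and 14.7 FPKM and the nf-yc11 libraries at 20.2, 18.5 and 20.1 FPKM. It rose 1.3-fold (log2 change 0.36 ± 0.06 SE, 95% interval 0.23 to 0.49, adjusted p = 0.00189, limma), and 5014 of the features tested had a larger log2 change. HSP101 stood at 1.43% ± 0.0683 of the summed HSP70 FPKM in WT and at 1.22% ± 0.0194 in nf-yc11.

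Heat-induced and constitutive forms were set side by side by their class, which comes from general knowledge of rice. The classes were written with earlier results of these data known, so they are not independent of these libraries. The median log2 change was 1.39 over the 4 heat-induced genes, 0.46 over the 3 constitutive genes and 0.58 over the 3 genes not classed. All 3 genes that rose at least 2-fold, OS04G0107900, OS05G0460000 and OS03G0276500, were in the heat-induced class; 4.33% of all features tested rose by this much. As OS04G0107900 passed the filter only through its nf-yc11 libraries, these counts and medians describe the genes and support no difference between the classes. At a mean of at least 5 FPKM, OS04G0107900 and OS09G0482600 were left out. The median of the heat-induced genes then exceeded that of the constitutive genes by 0.67, against 0.93 with all of them. This filter dropped the only constitutive gene that did not pass, and OS05G0460000 cleared it through its nf-yc11 libraries. The WT mean of OS05G0460000 was 3.39 FPKM and its nf-yc11 mean 12 FPKM, so the 0.67 supports no difference between the classes either. HSP101, also classed as heat-induced, had an interval of 0.23 to 0.49. This lay below that of the constitutive OS11G0703900, 0.52 to 0.69, and overlapped that of the constitutive OS09G0482400, 0.29 to 0.63. The genes with the largest rises were also low in WT, at 0.712 ± 0.141, 3.39 ± 0.227 and 7.87 ± 0.873 FPKM (SD, n = 3). OS09G0482600, a constitutive gene, was second lowest in WT at 1.23 ± 0.306 FPKM and did not pass. In absolute terms the constitutive gene OS11G0703900 rose most.

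**Figure D3:**
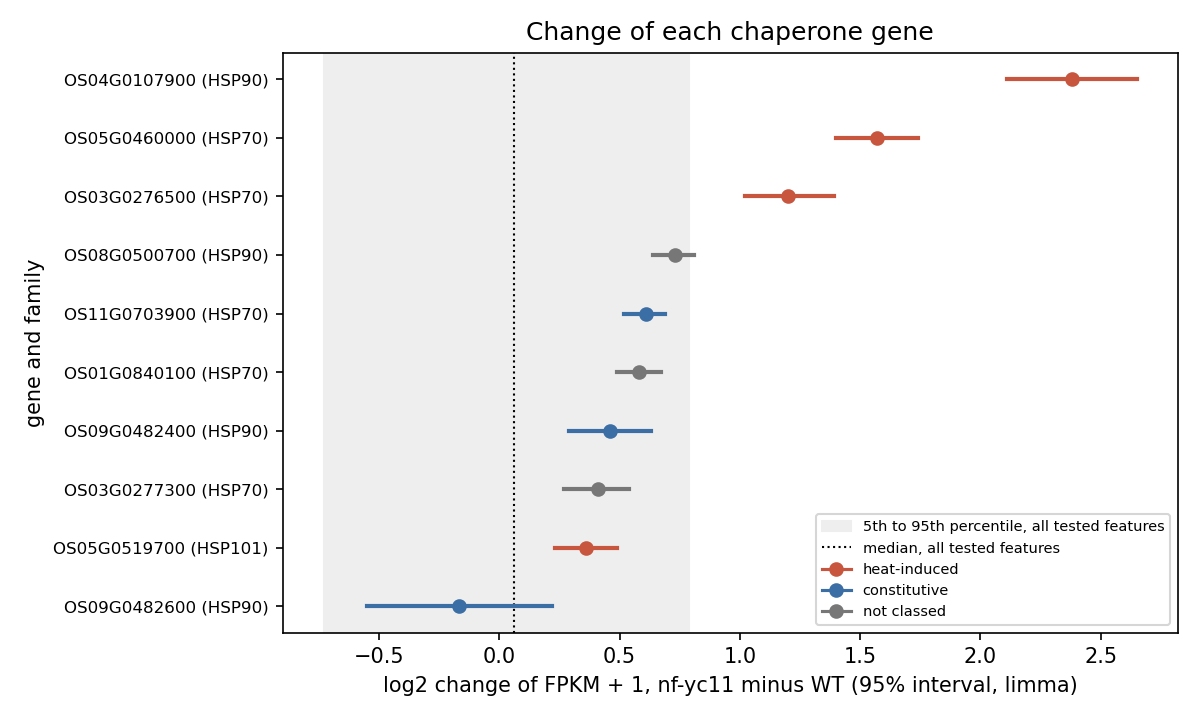
Log2 change of FPKM + 1, nf-yc11 minus WT, of each chaperone gene with its 95% interval (limma), coloured by class, over the range from the 5th to the 95th percentile of all tested features (−0.73 to 0.79) and their median (0.06). The 3 genes beyond that range are classed as heat-induced, and HSP101, the other gene of this class, lies at 0.36. The classes were written with earlier results of these data known, and OS04G0107900 passed the filter only through its nf-yc11 libraries. The figure therefore supports no difference between the classes.

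The order of levels was steep and nearly the same in both groups. In WT it ran from OS11G0703900 through OS08G0500700, OS01G0840100, OS09G0482400, HSP101, OS03G0277300, OS03G0276500, OS05G0460000 and OS09G0482600 to OS04G0107900, and the ranges of no neighbouring pair overlapped. For the lowest pair the Poisson 95% intervals of the WT libraries did overlap. They reached up to 1.75 FPKM for OS04G0107900 and down to 0.583 FPKM for OS09G0482600, so the counts do not settle the order of this pair in WT. The step from the first to the second was 24.7-fold, and no other step exceeded 2.76-fold. In nf-yc11 OS03G0276500 moved up to 19.4 FPKM, beside HSP101 at 19.6 FPKM, and their ranges overlapped. There OS04G0107900, at 7.93 FPKM, lay above OS09G0482600, at 0.981 FPKM.

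Within each group the library numbered 2 was low for most of the 10 genes, by a small margin. In WT replicate 2 only 1 of 10 lay above its group mean, with a median deviation of −0.054 on the log2 scale, and in nf-yc11 replicate 2 again 1 of 10 did, with a median of −0.054. In the other libraries 6 to 8 of 10 lay above it. Over all tested features the median deviations of these 6 libraries were between −0.006 and 0.007. The fits without either replicate 2 kept all 9 genes above the threshold.

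Likeness of pattern over the 6 libraries was read within the lists. Of the genes in the lists used here, those most like OS08G0500700 by Pearson r of log2(FPKM + 1) were OS05G0460000, OS01G0840100 and the small heat shock protein gene HSP24.1, each at 0.999, and 24 of all tested features reached the value of the third. For OS11G0703900 they were OS01G0840100 (0.998), OS08G0500700 (0.997) and OS05G0460000 (0.996), with 98 features reaching the third. For HSP101 the values were lower, with OS11G0703900 at 0.979, OS01G0840100 at 0.976 and OS08G0500700 at 0.968, a level that 912 features reached. The 6 libraries form 2 groups, between which all these genes differ, so the values describe these libraries only.

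Other genes of the heat shock system were read from lists of genes whose names the gene table holds. Heat shock factors are the transcription factors that bind heat shock gene promoters; of 11, 8 were tested, and 4 of these rose while the other 4 missed the threshold, with a median log2 change of 0.39. Since 49.1% of all features tested changed and 29.8% rose, this count is near the background and is not a result about the factors. HSFB2b, a class B factor, rose 1.86-fold from 4.06 ± 0.388 to 7.55 ± 0.615 FPKM (SD, n = 3), and HSFB2c 2.07-fold from 1.19 ± 0.105 to 2.45 ± 0.262 FPKM. HSFA2a, which passed the filter through its nf-yc11 libraries, rose from 0.867 ± 0.22 to 1.84 ± 0.443 FPKM (adjusted p = 0.0206 in limma, log2 change 0.60), but its call ended without WT replicate 2 (adjusted p = 0.062), nf-yc11 replicate 1 (0.0656) or nf-yc11 replicate 3 (0.0622). Without WT replicate 2 or nf-yc11 replicate 1 only 2 of the 8 factors passed, and with size factors or quantile normalization 4 were called higher and 1 lower, against 3 and 1 with TMM factors. The most abundant factor, HSFC1b, was at 29.4 ± 1.42 and 29.5 ± 0.407 FPKM, with no call.

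Small heat shock proteins hold unfolded proteins without ATP. Of 10 genes listed for them, 5 were left out because the gene table contradicted their names. Of the 5 kept, 3 were tested and all 3 rose (median log2 change 1.23), where 29.8% of all features tested rose. These 3 genes do not stand for the small heat shock proteins as a whole. OS03G0266300, in the place of HSP17.9A in the gene table, rose 2.07-fold from 85.5 ± 1.66 to 177 ± 5.27 FPKM, HSP24.1 rose 3.07-fold from 25.6 ± 0.842 to 78.4 ± 1.84 FPKM, and HSP26.7 rose 2.55-fold from 6.62 ± 0.589 FPKM to between 16 and 18 FPKM in the nf-yc11 libraries. Of 13 genes listed for HSP70, HSP90 and ClpB chaperones of other compartments, the gene table held 5. The others, among them all listed HSP90 genes and the HSP70 genes of mitochondria and plastids, were left out after values had been seen. Of the 5, 3 were tested and 0 passed, 0 also at an unadjusted p under 0.05 in limma and 1 with voom. These 3 genes do not stand for the chaperones of other compartments as a whole. BiP1, the HSP70 of the endoplasmic reticulum, was at 270 ± 10 and 268 ± 8.81 FPKM (adjusted p = 0.82 in limma, log2 change −0.01), and it was called lower under quantile normalization (adjusted p = 0.0127), with voom on the reads (0.0333) and with the total without the 100 most abundant features (0.041). Of the ClpB genes of organelles, relatives of HSP101, OS03G0426900 of the plastid was at 45.6 ± 0.508 and 46 ± 1.28 FPKM, and OS02G0181900 of the mitochondrion at 1.89 ± 0.305 and 2.41 ± 0.308 FPKM; neither passed. Their intervals were −0.08 to 0.10 and −0.05 to 0.53, against 0.23 to 0.49 for HSP101. Of 11 cochaperone genes listed, the gene table held 2, and the others were left out after values had been seen. These 2, the HSP90 cochaperones SGT1 and RAR1, known from disease resistance, went opposite ways. SGT1 rose 1.39-fold from 89.5 ± 4.11 to 124 ± 3.48 FPKM, and RAR1 fell from 39.5 ± 2.32 to 33.5 ± 1.59 FPKM. As 49.1% of all features tested changed, these 2 genes do not stand for the cochaperones as a whole.

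**Figure D4:**
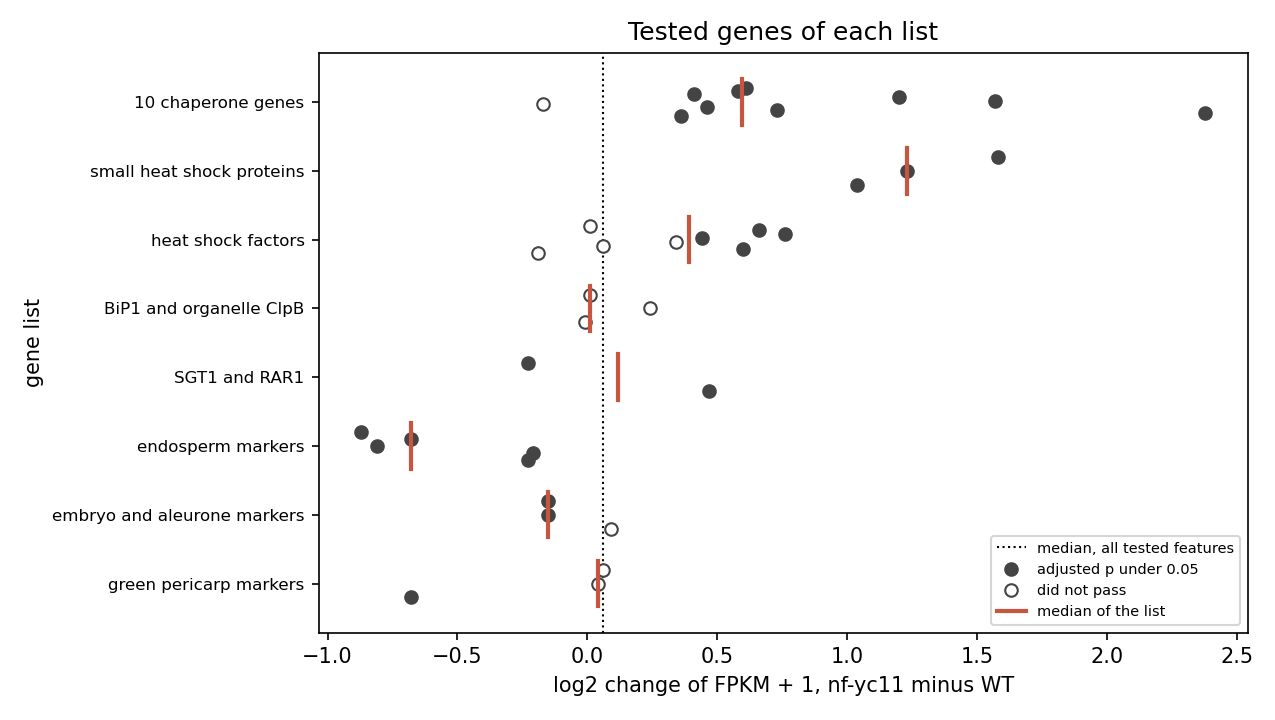
Log2 change of FPKM + 1, nf-yc11 minus WT, of every tested gene kept in each list, with the list's median in red. Points are filled where the adjusted p was under 0.05 (limma) and open where it was not. The median of all tested features (0.06) is dotted. The chaperone genes (median 0.59) and the 3 tested small heat shock protein genes (1.23) lie to the right, and the endosperm markers (−0.68) to the left.

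Markers of the tissue were measured beside these genes. Of 6 endosperm markers listed, the gene table held 5, and the other was left out after values had been seen. All 5 of these endosperm markers fell, where 19.3% of all features tested fell. The most abundant, GluA1, went from 15725 ± 190 to 13400 ± 129 FPKM, a ratio of 0.852. The largest falls were those of the starch synthase gene GBSSI, from 1063 ± 19.5 to 608 ± 26.4 FPKM, and of NF-YB1, from 439 ± 14.7 to 240 ± 4.42 FPKM. The summed level of the 5 markers was 32855 to 33682 FPKM in WT and 27156 to 27424 FPKM in nf-yc11. Of 4 markers listed for embryo and aleurone, 3 were kept in the same way. Of these 3, 2 fell and 1 did not pass, with sums of 2503 to 2825 and 2701 to 2867 FPKM. Of 3 markers of the green pericarp, 1 fell and 2 did not pass, with sums of 1559 to 1576 and 1380 to 1514 FPKM. No marker was at 0 in all libraries, and the part of tissue make-up in the chaperone results was not tested.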

How the data were processed

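RNA from endosperm at 7 days after pollination was sequenced in 3 WT and 3 nf-yc11 libraries. The authors deposited FPKM values per feature; CASAVA 1.7, HISAT2 2.0.5 and DESeq are named, with no role, in the submitters' processing notes. The counting tool, strand setting, annotation and genome build were not given in the sources used here. Reads of overlapping or similar genes may be split in ways not known. Whole reads were recovered from the steps between FPKM values for 36189 of 36189 features above 0 (tolerance 0.0001 reads), and cover 99.64% to 99.67% of each library's total. Intervals from reads cover counting error only.

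The 22093 features that averaged 1 FPKM or more over the 6 libraries entered limma (version 3.58.1, R version 4.3.3) as log2(FPKM + 1), with a variance trend, group as the only term and Benjamini-Hochberg adjustment over all of them at 0.05. Fold changes on that scale understate the change of low genes; ratios of mean FPKM are given beside them. A count test was run on the recovered reads as an alternative (voom in limma, with library sizes scaled by trimmed means of M values), and the scripts were tested on simulated data. With 3 libraries against 3, an exact permutation test of a single value cannot go below p = 0.1, so sums and ratios are given without a test.

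The chaperone genes, their classes and the lists were chosen with earlier results of these data known. The rule for naming took all 10 chaperone genes and, from each other list, the most abundant tested gene and up to 3 with the smallest p; for the tissue markers only some of these are printed. For HSP101 and the most abundant HSP90 and HSP70 genes it also took the 3 list genes with the highest Pearson r. List names were checked against the chromosome and place of the same symbol in a RefSeq gene table, whose assembly may differ from the authors' build. Of 69 list IDs, 45 were kept. The gene table held no entry for 26. Among these were all 5 HSP70 genes, the HSP90 gene OS04G0107900 and the ID taken for NF-YC11, which were kept with their names unchecked. The others of the 26 were left out, a step decided after values had been seen. The gene table also contradicted 5 small heat shock protein IDs, which were left out. The tolerance on place was widened to 3 Mb after values had been seen, which kept the plastid ClpB gene.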

Additional observations from a re-analysis of the deposited data

How the results depend on the processing

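The 9 chaperone genes that rose did so under every alternative run on them, except that OS04G0107900 was not tested at a mean of at least 5 FPKM, where 8 of 8 tested genes rose. OS09G0482600, also not tested there, passed in none. The count of changed features was 8320 at a mean of at least 5 FPKM, 11662 with voom and 10842 as reported, and 9075 to 9686 with single libraries left out. The log2 ratio of summed HSP70 was 0.62 as reported, 0.55 with size factors, 0.51 with the total without the 100 most abundant features and 0.59 to 0.65 with single libraries left out. For summed HSP90 these were 0.74, 0.67, 0.64 and 0.72 to 0.77. The median log2 change of heat-induced minus constitutive genes was 0.93, against 1.07 with a pseudocount of 0.1, 0.67 at a mean of at least 5 FPKM, 1.11 with voom and 0.84 to 1.04 with single libraries left out. Of the heat shock factors 4 passed, against 2 (1 higher, 1 lower) at a mean of at least 5 FPKM, where 4 were tested, 6 (5 higher, 1 lower) with voom, 5 without a variance trend, and 2 to 4 with single libraries left out. Of the 3 tested chaperones of other compartments 0 passed, against 1 with quantile normalization, with voom and with the total without the 100 most abundant features. This last alternative was chosen after seeing the data. The cause of these shifts was not tested. Over all features tested, the Pearson r of the deviations of same-numbered replicates was −0.0505, 0.0042 and −0.0477. Both libraries numbered 2 were low for most of the chaperone genes, and whether same-numbered libraries share a batch was not tested. The fit with a replicate block gave 9948 changed features and 9 chaperone genes. Depth limits OS04G0107900 and OS09G0482600 most, with 5 to 9 and 27 to 57 reads per WT library.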
